A study of Arabidopsis thaliana with 9 samples.

Results

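PYK10 (AT3G09260), BGLU44 (AT3G18080) and BGLU15 (AT2G44450) are 3 beta-glucosidase genes of Arabidopsis thaliana, each read by its own probe set among the 22746 probe sets of the array. They were chosen by their measured log2 values, as beta-glucosidases that were higher in leaves without the NADPH oxidase RBOHF than in leaves that have it. Their levels with and without RBOHF are therefore given as a description, with no test.

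The leaves came from 3 genotypes of the Columbia-0 ecotype, cat2 rbohF, cat2 rbohD and cat2, with 3 arrays each. All lack CAT2, a catalase that breaks down photorespiratory hydrogen peroxide in leaves; sample titles write the alleles as cat2-2, atrbohD and atrbohF. RBOHD and RBOHF are plasma membrane enzymes that make superoxide outside the cell. Each array held RNA pooled from the leaves of 8 or more plants, 3 weeks old, from days of 16 h light at 200 µmol m-2 s-1 and 65% humidity, conditions under which plants without CAT2 come under oxidative stress. Col-0 plants without these mutations were not analysed here, and the annotation named no probe set for RBOHD, RBOHF or CAT2, so the genotype labels were not checked by these transcripts.

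Beta-glucosidases of glycoside hydrolase family 1 cut glucose from small molecules and release the aglycone, which in plants can be a defence compound, a hormone or a cell wall precursor. Enzyme and substrate are commonly stored apart and meet when cells are broken. PYK10 is the main protein of ER bodies, compartments of the endoplasmic reticulum known best from seedlings and roots, and acts on the coumarin glucoside scopolin and on indole glucosinolates. BGLU44 acts on beta-mannosides in vitro, and BGLU15 hydrolyses flavonol glycosides that carry both glucose and rhamnose.

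Leaf identity was checked with the 2 of 15 listed leaf markers that had a probe set of 1 gene. RCA, the activase of Rubisco, and LHCB4.1, an antenna protein of photosystem II, had log2 values of 13.55 to 14.19 in cat2 rbohF, 13.52 to 14.15 in cat2 rbohD and 13.53 to 14.15 in cat2. RCA had the identical value of 14.15 on arrays of all 3 genotypes, so differences in leaf content between genotypes cannot be read from it. Replicate 3 of cat2 rbohD stood apart from its label: over the tested probe sets, its Pearson r was 0.983, 0.988 and 0.984 against the cat2 rbohF arrays and 0.977 and 0.983 against its own group. RNA quality was read from the 3' over 5' signal of control probe sets. For GAPDH it was 0.91 ± 0.07 in cat2 rbohF, 0.86 ± 0.08 in cat2 rbohD and 0.75 ± 0.06 in cat2 for one pair of sets (log2, SD, n = 3 each) and -0.22 ± 0.05, -0.13 ± 0.05 and -0.03 ± 0.11 for a second pair. It was 2.47 ± 0.17, 2.56 ± 0.17 and 2.60 ± 0.18 for actin and 1.29 ± 0.05, 1.25 ± 0.03 and 1.33 ± 0.09 for ubiquitin in the same order of genotypes, so that the mean was higher in cat2 rbohF than in cat2 for the first GAPDH pair and lower for the others. Its part in the results was not tested.

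PYK10 was higher on every cat2 rbohF array than on any other array. Its log2 expression values were 9.17, 8.71 and 9.01 in cat2 rbohF, 8.11, 7.83 and 8.07 in cat2 rbohD, and 8.11, 6.96 and 7.78 in cat2. The cat2 rbohF arrays lay at least 0.61 above both other genotypes, while cat2 rbohD and cat2 overlapped. The means were 8.96 ± 0.23 in cat2 rbohF, 8.00 ± 0.15 in cat2 rbohD and 7.62 ± 0.59 in cat2 (SD, n = 3 each). PYK10 was 2.55-fold higher in cat2 rbohF than in cat2 (95% interval 1.72 to 3.77), a log2 difference of 1.35 ± 0.25 (SE). Against cat2 rbohD the log2 difference was 0.96 ± 0.25, or 1.95-fold (95% interval 1.32 to 2.88). Because whole leaves were measured, more cells with the transcript and more transcript per cell cannot be told apart.

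Among the cat2 arrays, replicate 2 was lowest in PYK10 and deviated by -0.66 from the mean of its genotype. Without that array the log2 difference of cat2 rbohF against cat2 was 1.02. PYK10 varied between replicates more than 96.6% of tested probe sets, with a pooled SD of 0.38 where the median of all tested probe sets was 0.13. BGLU44 and BGLU15 had pooled SDs of 0.21 and 0.17.

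BGLU44 had log2 values of 11.03, 10.51 and 10.95 in cat2 rbohF, 9.89, 10.28 and 9.95 in cat2 rbohD, and 9.77, 9.86 and 9.95 in cat2. All cat2 rbohF arrays lay above all others, by 0.24 over the highest cat2 rbohD array and by 0.56 over the highest cat2 array, and cat2 rbohD and cat2 overlapped. The means were 10.83 ± 0.28 in cat2 rbohF, 10.04 ± 0.21 in cat2 rbohD and 9.86 ± 0.09 in cat2 (SD, n = 3 each). The log2 difference of cat2 rbohF was 0.97 ± 0.15 (SE) against cat2, or 1.96-fold (95% interval 1.56 to 2.46), and 0.79 ± 0.15 against cat2 rbohD, or 1.73-fold (95% interval 1.38 to 2.18).

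BGLU15 lay close to the limit set for dim probe sets. Its log2 values were 5.43, 5.40 and 5.68 in cat2 rbohF, 4.63, 5.01 and 4.98 in cat2 rbohD, and 4.93, 4.76 and 4.67 in cat2. The cat2 rbohF arrays again lay above the other 6, and the other genotypes overlapped. A probe set was tested where its third-highest value of the 9 exceeded 5.14, the 40th percentile of all values, and BGLU15 passed only through its cat2 rbohF arrays. The means were 5.50 ± 0.15 in cat2 rbohF, 4.88 ± 0.21 in cat2 rbohD and 4.79 ± 0.13 in cat2 (SD, n = 3 each). The log2 difference of cat2 rbohF was 0.72 ± 0.13 (SE) against cat2, or 1.64-fold (95% interval 1.35 to 1.99), and 0.63 ± 0.13 against cat2 rbohD, or 1.54-fold (95% interval 1.27 to 1.87).

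**Figure D1:**
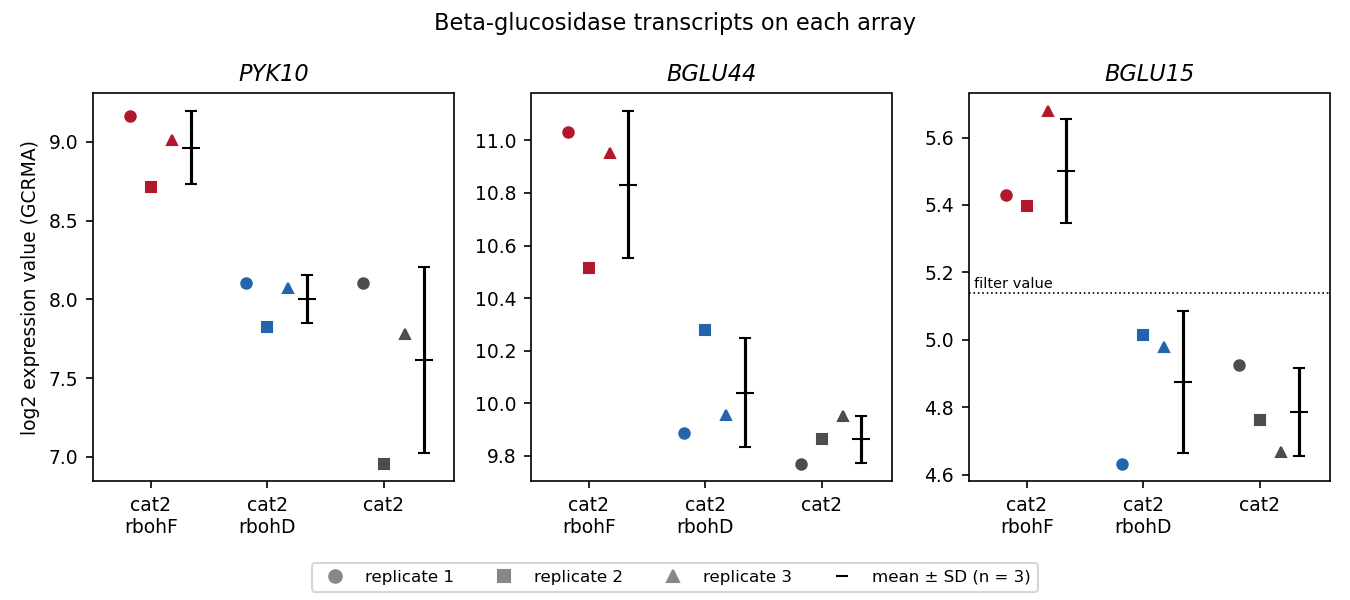
Log2 expression values (GCRMA) of PYK10, BGLU44 and BGLU15 on each array of cat2 rbohF, cat2 rbohD and cat2, one symbol per replicate, with the mean and SD (n = 3) beside them; axes differ between panels and do not start at 0. For each gene the 3 cat2 rbohF arrays lie above the other 6, and BGLU15 exceeds the filter value of 5.14 (dotted) on the cat2 rbohF arrays only.

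All 3 genes passed the filter, and for all 3 the cat2 rbohF arrays lay above the cat2 arrays without overlap, as they did for 18.9% of the 13888 tested probe sets. Against cat2 rbohD the same held for all 3 genes and for 12.5% of tested probe sets. Since the genes were chosen for this pattern, nothing is read from these counts. Ranked by the rise in cat2 rbohF against cat2, PYK10, BGLU44 and BGLU15 held places 33, 97 and 197, and against cat2 rbohD places 49, 94 and 177. Both rankings use the same cat2 rbohF arrays.

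The comparison of cat2 rbohD with cat2, 2 genotypes that both have RBOHF, asks what loss of the other oxidase did to the genes. For PYK10 and BGLU44 the difference did not pass the test. It was 0.39 ± 0.25 on the log2 scale for PYK10 (limma adjusted p = 0.629, 95% interval -0.18 to 0.95), and 0.18 ± 0.15 for BGLU44 (limma adjusted p = 0.710, 95% interval -0.15 to 0.51). With limma 0 of these 2 were called, where 0.209% of all tested probe sets were. An unadjusted p under 0.05 was reached by 0 of the 2 and by 10.8% of all tested probe sets. With 2 genes such counts cannot differ from the background, and nothing is read from them. For BGLU15 the difference was 0.09 ± 0.13 (95% interval -0.19 to 0.37), but all 6 values behind it lay under the filter value, and no test is read from it. The PYK10 difference was 0.06 without cat2 replicate 2 and 0.63 without cat2 replicate 1, and 0.35 without cat2 rbohD replicate 3. With single arrays left out, that of BGLU44 was 0.06 to 0.25 and that of BGLU15 0.02 to 0.21. By the rise in this comparison, PYK10, BGLU44 and BGLU15 held places 287, 1453 and 3345 of the 13888 tested probe sets. The choice of the genes set the arrays of both genotypes on its low side, and the test does not allow for that.

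The means had the same order for each gene, highest in cat2 rbohF, then cat2 rbohD, then cat2, and those of cat2 rbohD and cat2 did not differ beyond their spread. Within genotypes, single arrays ranked the genes differently. BGLU44 and BGLU15 were highest on cat2 rbohD replicate 2, where PYK10 was lowest in that genotype. In cat2, PYK10 and BGLU15 were highest on replicate 1, where BGLU44 was lowest. In cat2 rbohF all 3 were lowest on replicate 2. With the genotype means removed, Pearson r over the 9 arrays was 0.07 between PYK10 and BGLU44, 0.11 between PYK10 and BGLU15, and 0.37 between BGLU44 and BGLU15, as a description. BGLU15 lay under the filter value on every cat2 rbohD and cat2 array, which limits what its r can show.

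PYK10 is bound in a complex by jacalin-related lectins once cells are broken, and its ER bodies need the transcription factor NAI1 and the ER body protein NAI2. Of 18 genes listed for this system, 6 had a probe set of 1 gene and 5 were tested. In cat2 rbohF against cat2, 3 of these 5 rose and 0 fell (limma adjusted p under 0.05), where 6.47% of all tested probe sets rose. The median log2 difference of the list was 1.03, and that of all tested probe sets was 0.01. The genes that rose were JAL22, JAL33 and JAL34, all jacalin-related lectin genes. By locus number JAL22 (AT2G39310) lies close to JAL23 (AT2G39330), and JAL33 (AT3G16450) to JAL34 (AT3G16460). The 5 genes are therefore not separate cases, and the count does not allow for that. JAL23, NAI2 and NAI1 are described as well, chosen after their values were seen.

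JAL22 had log2 values of 8.01, 7.54 and 7.83 in cat2 rbohF, 6.81, 6.70 and 7.26 in cat2 rbohD, and 6.57, 5.76 and 6.69 in cat2. The cat2 rbohF arrays lay above the other 6, and the cat2 rbohD arrays lay just above the cat2 arrays. JAL22 rose 2.74-fold in cat2 rbohF against cat2, by 1.46 ± 0.24 (SE) on the log2 scale (limma adjusted p = 0.00539), and passed under every alternative run. Against cat2 rbohD the log2 difference of cat2 rbohF was 0.87 ± 0.24 (limma adjusted p = 0.0821), and it passed only without cat2 rbohD replicate 3, at 1.04 (adjusted p = 0.0407), and with a replicate block (adjusted p = 0.0390). In cat2 rbohD against cat2 it was 0.58 ± 0.24 (limma adjusted p = 0.433).

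JAL33 had log2 values of 8.05, 7.57 and 8.00 in cat2 rbohF, 7.32, 6.84 and 7.55 in cat2 rbohD, and 6.93, 6.33 and 7.08 in cat2. The lowest cat2 rbohF array lay only just above cat2 rbohD replicate 3. JAL33 rose 2.13-fold in cat2 rbohF against cat2, by 1.09 ± 0.23 on the log2 scale (limma adjusted p = 0.0136). The call was lost when cat2 rbohF replicate 1 (adjusted p = 0.0635) or replicate 3 (adjusted p = 0.0537) was left out. Against cat2 rbohD its log2 difference was 0.64 ± 0.23 (limma adjusted p = 0.148; 0.0325 with a replicate block).

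JAL34 had log2 values of 8.96, 8.62 and 8.92 in cat2 rbohF, 8.37, 8.04 and 8.82 in cat2 rbohD, and 8.05, 7.86 and 8.42 in cat2, and the cat2 rbohF arrays overlapped with those of cat2 rbohD but not with those of cat2. It rose 1.65-fold in cat2 rbohF against cat2, by 0.72 ± 0.20 (limma adjusted p = 0.0394). The call rested on several arrays: with any of 5 arrays left out, namely replicates 1 and 2 of cat2, replicates 1 and 3 of cat2 rbohF and replicate 1 of cat2 rbohD, the adjusted p was 0.0503 to 0.134, and without a filter it was 0.0543.

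JAL23 had log2 values of 8.68, 7.88 and 8.54 in cat2 rbohF, 6.81, 7.61 and 7.42 in cat2 rbohD, and 7.39, 6.40 and 8.22 in cat2, a wide spread in cat2 that overlapped with cat2 rbohF. Its log2 difference of 1.03 ± 0.41 against cat2 did not pass (limma adjusted p = 0.120). It was 0.56 without cat2 replicate 2 and 1.47 without cat2 replicate 3, where it passed (adjusted p = 0.0355). NAI2 averaged 6.71 ± 0.14 in cat2 rbohF, 6.30 ± 0.42 in cat2 rbohD and 6.30 ± 0.41 in cat2 (SD, n = 3 each), with a log2 difference of 0.40 ± 0.23 in cat2 rbohF against cat2 (limma adjusted p = 0.279). NAI1 was dim, at 4.81 ± 0.01 in cat2 rbohF, 4.79 ± 0.17 in cat2 rbohD and 4.82 ± 0.16 in cat2, and was not tested.

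**Figure D2:**
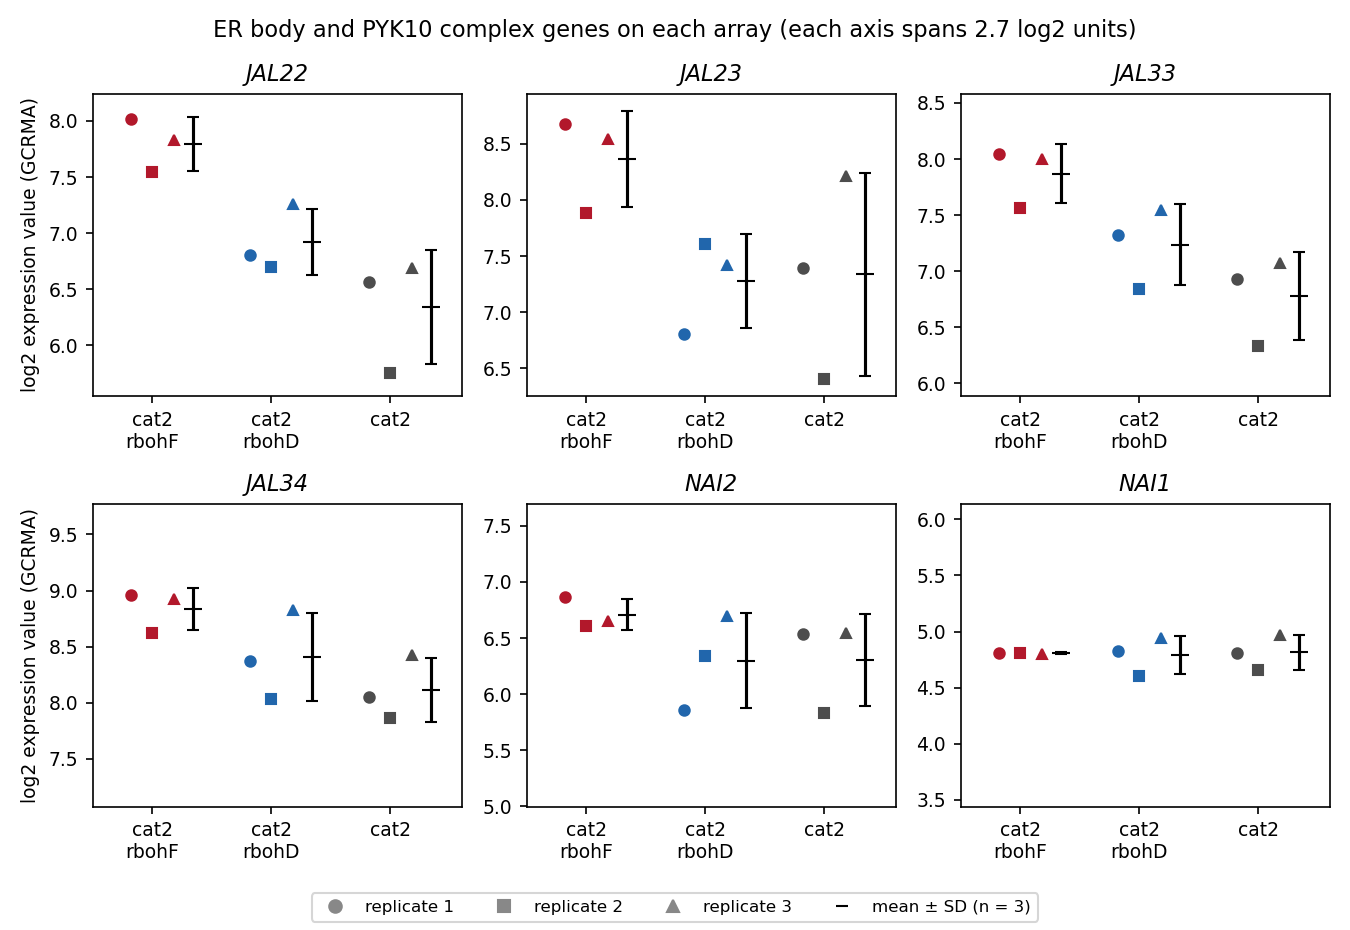
Log2 expression values (GCRMA) of 4 jacalin-related lectin genes, NAI2 and NAI1 on each array of cat2 rbohF, cat2 rbohD and cat2, one symbol per replicate, with the mean and SD (n = 3). Every axis spans the same number of log2 units but has its own limits, and none starts at 0. Heights therefore do not compare between panels. JAL22 and JAL33 are higher on all 3 cat2 rbohF arrays than on the other 6, JAL23 overlaps between cat2 rbohF and cat2, and NAI1 has a mean of 4.81 in cat2 rbohF and 4.82 in cat2.

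Against cat2 rbohD, 0 of the 5 genes passed with limma, where 1.92% of all tested probe sets did, and 3 had an unadjusted p under 0.05, where 22.2% did. All tested probe sets called in that comparison were 120 higher and 147 lower, a split that was 157 and 127 when the arrays were quantile-normalized again. In cat2 rbohD against cat2, 0 of 5 passed with limma, where 0.209% of all tested probe sets did, and 1 had an unadjusted p under 0.05, where 10.8% did. The comparison of cat2 rbohF with cat2 rbohD is also the test of whether both losses differ, and the lectins did not pass it in the fit without a block, while JAL22 and JAL33 passed it with a replicate block.

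Of the lectins, JAL22 and JAL33 followed PYK10 most closely from array to array. With the genotype means removed, Pearson r with PYK10 over the 9 arrays was 0.86 for JAL22, 0.82 for JAL33, 0.63 for NAI2, 0.62 for JAL23, 0.57 for the dim NAI1 and 0.52 for JAL34, as a description of arrays that share their RNA. Such values were not particular to the lectins. In the same measure r was 0.93 for AT5G13140, 0.92 for AT3G52155 and 0.87 for AT1G78260, genes outside the list with patterns like PYK10. It was -0.94 for AT1G25370. On cat2 replicate 2, where PYK10 was lowest, the deviation from the cat2 mean was -0.58 for JAL22, -0.93 for JAL23, -0.45 for JAL33 and -0.25 for JAL34. BGLU15, under the filter value on that array, deviated by -0.02 there, and BGLU44 was at its cat2 mean. Not every array followed: on cat2 rbohD replicate 2, where PYK10 was lowest in its genotype (-0.17), JAL23 deviated by 0.33, and on cat2 replicate 1, where PYK10 was highest (0.49), JAL23 deviated by 0.05 and JAL34 by -0.06.

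PYK10 is known as a gene of roots, so root markers were read beside it. Of 26 listed root markers, 4 had a probe set of 1 gene, the root hair expansin genes EXPA7 and EXPA18 and the peroxidase genes AT4G30170 and AT5G17820, and all 4 were too dim to be tested. Their log2 values were 3.65 to 4.49 in cat2 rbohF, 3.39 to 4.52 in cat2 rbohD and 3.12 to 4.35 in cat2. Their summed linear signal was 66.9 to 73.0 in cat2 rbohF, 63.2 to 67.1 in cat2 rbohD and 55.0 to 62.6 in cat2. The sums of cat2 rbohF and cat2 did not overlap, but every value in them lay under the filter value. Of all tested probe sets, 18.9% were higher without overlap in this comparison. The part of root tissue in the PYK10 and lectin values was not tested. Of 9 guard and myrosin cell markers FMA had a probe set of 1 gene, at 0.15 ± 0.09 in cat2 rbohF against cat2 (limma adjusted p = 0.299) and 0.41 ± 0.09 against cat2 rbohD (limma adjusted p = 0.0527). Against cat2 rbohD, FMA passed in 2 of 17 alternatives (lowest limma adjusted p = 0.0412). In cat2 rbohD against cat2 FMA was at -0.26 ± 0.09 (limma adjusted p = 0.344), so its lowest mean was in cat2 rbohD. The listed vascular and flower markers had no probe set of 1 gene.

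The other beta-glucosidases were read in the same comparisons. Of 45 further family genes, 19 had a probe set of 1 gene and 7 were tested. In cat2 rbohF against cat2, 0 rose and 1 fell with limma, where 6.47% of all tested probe sets rose and 9.89% fell, so these counts are near the background. An unadjusted p under 0.05 was reached by 1 of the 7 and by 30.7% of all tested probe sets, and the median log2 difference was 0.17.

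The gene that fell was BGLU45, whose enzyme acts on monolignol glucosides, precursors of lignin. BGLU45 had log2 values of 6.35, 6.09 and 6.59 in cat2 rbohF, 5.51, 5.79 and 5.57 in cat2 rbohD, and 6.66, 7.22 and 6.89 in cat2, with no overlap between any pair of genotypes. It fell by 0.58 ± 0.16 on the log2 scale in cat2 rbohF against cat2 (limma adjusted p = 0.0399), a call that was lost with a replicate block (adjusted p = 0.0523), without a filter (adjusted p = 0.0538) and with replicate 2 or 3 of cat2, or 1 or 2 of cat2 rbohF, left out (0.0930 to 0.127). In cat2 rbohD against cat2 it fell by 1.30 ± 0.16 (limma adjusted p = 0.0151), 1 of 7 family genes lower where 0.187% of all tested probe sets were. That call was lost with replicate 2 or 3 of cat2, or 1 of cat2 rbohD, left out (adjusted p 0.0669 to 0.0866).

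The family genes that did not pass in cat2 rbohF against cat2 had log2 differences between -0.40 and 0.39. BGLU33 was at 0.39 ± 0.22, BGLU40 at 0.28 ± 0.13, BGLU16 at 0.22 ± 0.12 and BGLU42, which takes part in the coumarin response of roots to low iron, at 0.17 ± 0.10. BGLU25 was at -0.09 ± 0.20 and BGLU46, like BGLU45 an enzyme of monolignol glucosides, at -0.40 ± 0.28. BGLU33 was the only one of these without overlap, at 7.93, 7.56 and 7.94 in cat2 rbohF and 7.43, 7.43 and 7.40 in cat2. Of all tested probe sets 18.9% were higher without overlap in this comparison, so nothing is read from it. BGLU33 was called in 2 of 18 alternatives (lowest limma adjusted p = 0.0343).

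Against cat2 rbohD, 0 of the 7 family genes passed with limma, where 1.92% of all tested probe sets did, and 4 had an unadjusted p under 0.05, where 22.2% did. Of the 7, 6 were positive, as were 49.5% of all tested probe sets, and the median log2 difference was 0.25. BGLU45 was nearest to passing, at 0.72 ± 0.16 (limma adjusted p = 0.0537), followed by BGLU16 at 0.34 ± 0.12 and BGLU33 at 0.61 ± 0.22. BGLU45 passed in 3 of 18 alternatives (lowest limma adjusted p = 0.0420), among them the fit without cat2 rbohF replicate 2 (adjusted p = 0.0472).

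**Figure D3:**
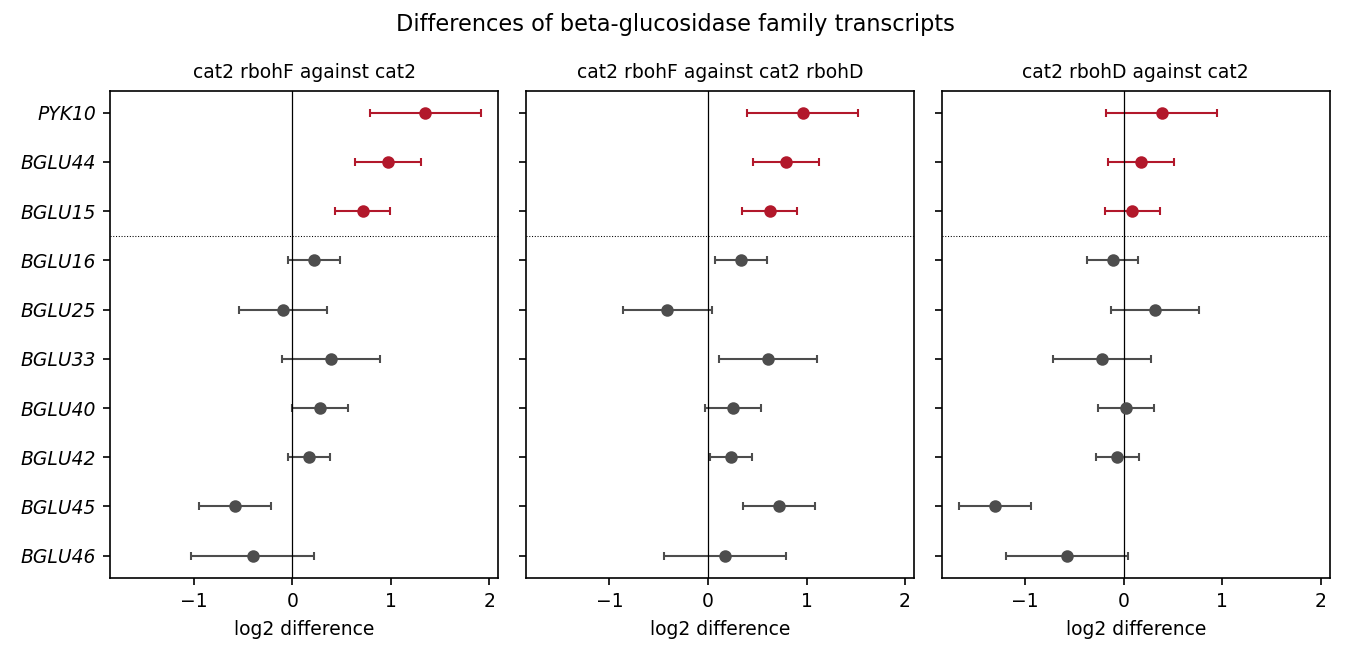
Log2 differences with 95% intervals of the tested beta-glucosidase family genes in cat2 rbohF against cat2, cat2 rbohF against cat2 rbohD and cat2 rbohD against cat2. PYK10, BGLU44 and BGLU15 (red) were chosen for being higher in cat2 rbohF. Their intervals in the comparisons of cat2 rbohF do not allow for that choice. Of the 7 others (grey), BGLU45 lies below 0 in both comparisons against cat2.

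The remaining 12 family genes with a probe set were dim, between 3.10 and 5.32 on the log2 scale. They did not pass the filter and were tested only where no filter was set. BGLU27, chosen among them after the values were seen, was highest in cat2, with log2 values of 3.69, 3.95 and 3.81 in cat2 rbohF, 4.08, 3.80 and 3.91 in cat2 rbohD, and 5.05, 5.32 and 5.22 in cat2. Without a filter, BGLU27 was at -1.39 ± 0.10 in cat2 rbohF against cat2 (limma adjusted p = 0.00047). In cat2 rbohD against cat2 it was at -1.27 ± 0.10 (limma adjusted p = 0.0016). These p-values do not allow for the choice of BGLU27 by its values, and its signal was dim.

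Neighbouring genes were read by their order on the chromosome, up to 3 genes to each side, and were likewise added after values were seen. BGLU43, a family member next to BGLU44, was dim at 3.74 ± 0.09 in cat2 rbohF, 3.60 ± 0.06 in cat2 rbohD and 3.68 ± 0.08 in cat2 (SD, n = 3 each). BGLU28 and BGLU29 lie next to BGLU15 in that order and were dim too. BGLU28, known from glucosinolate breakdown under sulfur starvation, averaged 4.12 ± 0.22 in cat2 rbohF, 4.53 ± 0.44 in cat2 rbohD and 4.76 ± 0.13 in cat2, with its mean lowest where BGLU15 was highest. BGLU29 averaged 3.42 ± 0.05 in cat2 rbohF, 3.53 ± 0.17 in cat2 rbohD and 3.45 ± 0.01 in cat2.

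Of the 4 neighbours tested, 2 rose in cat2 rbohF against cat2, where 6.47% of all tested probe sets rose. AT3G09250, next to PYK10, rose by 0.30 ± 0.09 (limma adjusted p = 0.0389; 0.0506 with a replicate block). Its call was also lost when replicate 1 or 3 of cat2, or any cat2 rbohF array, was left out (adjusted p 0.0513 to 0.141). AT3G18050, near BGLU44, rose by 0.44 ± 0.13 (limma adjusted p = 0.0468), and did not pass without a filter (adjusted p = 0.0609) or when any array of cat2, or replicate 1 or 3 of cat2 rbohF, was left out (0.0979 to 0.158). AT3G18060 (0.03 ± 0.09) and AT2G44420 (-0.20 ± 0.12) did not pass.

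Genes for the substrates of the enzymes were followed where they could be named. For PYK10, AT3G13610, also called F6'H1, encodes the hydroxylase that leads into scopoletin, the aglycone of scopolin. It had log2 values of 8.16, 8.80 and 8.57 in cat2 rbohF, 9.43, 9.89 and 8.85 in cat2 rbohD, and 9.65, 9.94 and 9.92 in cat2. The cat2 rbohF arrays lay below the other 6, with cat2 rbohD replicate 3 nearest to them. AT3G13610 was 2.51-fold lower in cat2 rbohF than in cat2, as it fell by 1.33 ± 0.24 on the log2 scale (limma adjusted p = 0.00801), and passed under every alternative run. Against cat2 rbohD its log2 difference was -0.88 ± 0.24 (limma adjusted p = 0.0808), and -1.15 without cat2 rbohD replicate 3, where it passed (adjusted p = 0.0154).

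AT3G13610 was the 1 of 3 tested coumarin genes called in cat2 rbohF against cat2, where 16.4% of all tested probe sets were. AT1G28680, which encodes coumarin synthase, was at -0.14 ± 0.12, and BGLU42 is given above. With cat2 rbohD against cat2, 0 of 3 passed with limma and 0 had an unadjusted p under 0.05, where 0.209% and 10.8% of all tested probe sets did; AT3G13610 was at -0.44 ± 0.24.

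For BGLU15, 3 of 14 genes of flavonol synthesis and glycosylation were tested, and 0 passed with limma in any comparison. Of all tested probe sets 16.4% passed in cat2 rbohF against cat2, 1.92% against cat2 rbohD and 0.209% in cat2 rbohD against cat2, so the count is near the background. In cat2 rbohF against cat2, 1 had an unadjusted p under 0.05, the flavonol rhamnosyltransferase gene UGT78D1, at 0.44 ± 0.18 (limma adjusted p = 0.124), where 30.7% of all tested probe sets had one. In the other comparisons none of the list did, where 22.2% of all tested probe sets did against cat2 rbohD and 10.8% in cat2 rbohD against cat2. UGT78D1 was called in cat2 rbohF against cat2 in 4 of 18 alternatives (lowest limma adjusted p = 0.00844). AT1G06000, which also encodes a flavonol rhamnosyltransferase, was at -0.20 ± 0.22, and the flavonoid glucosyltransferase gene UGT78D2 at 0.10 ± 0.14. For BGLU44, CSLA03, of a family of mannan synthases, was the 1 gene tested of 13 for mannan synthesis and breakdown, at 0.46 ± 0.20 (limma adjusted p = 0.157). It was called in 2 of 18 alternatives (lowest limma adjusted p = 0.0369). The listed genes of glucosinolate breakdown, myrosinases included, had no probe set of 1 gene.

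For each of the 3 genes, the most similar patterns were found by Pearson r over the 9 arrays among 7434 tested probe sets of 1 gene. The values are a description: they were picked as extremes among many candidates, and the arrays fall into genotypes. PYK10 was matched most closely by AT1G78260 (r = 0.971), AT5G13140 (0.968), AT3G52155 (0.967), the lectin gene JAL22 (0.963) and the carboxypeptidase-like gene scpl26 (0.959). AT1G78260 averaged 5.48 ± 0.13 in cat2 rbohF, 4.95 ± 0.17 in cat2 rbohD and 4.70 ± 0.28 in cat2 (SD, n = 3 each). The patterns most opposite to PYK10 were those of AT1G25370 (-0.980), AT4G23885 (-0.971) and the methionine sulfoxide reductase gene MSRB3 (-0.968). AT1G25370 averaged 5.98 ± 0.07 in cat2 rbohF, 6.46 ± 0.02 in cat2 rbohD and 6.70 ± 0.23 in cat2.

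BGLU44 was matched most closely by AT2G43535 (r = 0.980), AT4G10470 (0.960), COR15B (0.959), AT4G33700 (0.958) and AT2G46550 (0.957). COR15B, which encodes a chloroplast protein made in the cold, averaged 6.68 ± 0.28 in cat2 rbohF, 5.75 ± 0.10 in cat2 rbohD and 5.80 ± 0.11 in cat2 (SD, n = 3 each). The patterns most opposite to BGLU44 were those of the dephospho-CoA kinase gene ATCOAE (-0.978), AT1G62422 (-0.976) and AT1G71940 (-0.970).

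BGLU15, which exceeded the filter value on the cat2 rbohF arrays only, was matched most closely by AT3G25480 (r = 0.968), AT1G42960 (0.967), AT5G24490 (0.966), AT4G26370 (0.954) and AT1G02150 (0.954). AT4G25070 ran most opposite (-0.994), before AT1G74300 (-0.966) and AT1G05380 (-0.965). AT4G25070 averaged 5.21 ± 0.09 in cat2 rbohF, 5.68 ± 0.13 in cat2 rbohD and 5.72 ± 0.13 in cat2 (SD, n = 3 each). No gene stood in the lists of more than 1 of the 3 beta-glucosidases.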

How the data were processed

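Leaf RNA was measured on 9 Affymetrix arrays. The authors deposited log2 expression values computed with GCRMA, per the submitters' processing notes, which give no version. GCRMA corrects background by probe sequence and equalizes the distributions of the arrays, so it hides a shift common to most transcripts. Cross-hybridization between related genes was not checked, since probe sequences were not used here. The number of arrays limits the precision, and the median standard error of a log2 difference was 0.10.

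Of 22810 probe sets, 64 controls were left out and 13888 passed the filter. The annotation named 1 gene for 13513, several for 503 and none for 8730; 13436 matched a RefSeq table of TAIR10.1, used for names and gene order. Comparisons were fitted with limma 3.58.1 in R 4.3.3 (lmFit, eBayes, two-sided) on all arrays, with Benjamini-Hochberg adjustment over all tested probe sets, and the fit was tested on simulated data. Per the labels, replicates are biological, each a pool of plants.

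The members and gene lists were chosen with earlier results of these data known. Named were the members, every tested family gene, up to 4 called genes of each other list per comparison by smallest p (up to 2 where none was called), and the 5 most similar and 3 most opposite patterns per member. A gene with several probe sets was read from the one with the highest mean. Same-numbered arrays of cat2 rbohF and cat2 deviated together (r = 0.14, 0.15 and 0.17), so a replicate block is given where it changes such a call. For cat2 rbohF and cat2 rbohD r was -0.11, 0.25 and 0.15, and for cat2 rbohD and cat2 -0.24, 0.01 and 0.16. Alternatives changed the filter, normalization, variance model, array weights, arrays fitted and block, or left out each array.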

Additional observations from a re-analysis of the deposited data

How the results depend on the processing

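In cat2 rbohD against cat2, PYK10 and BGLU44 were called under none of the alternatives run. In the comparisons of cat2 rbohF the choice of the 3 genes fixed their direction, so only the sizes are given. BGLU15 did not pass the stricter filter and has no value there. Leaving out single arrays gave log2 differences in cat2 rbohF against cat2 of 1.02 to 1.59 for PYK10, 0.87 to 1.13 for BGLU44 and 0.63 to 0.79 for BGLU15. Of the other family genes, 1 was called in cat2 rbohF against cat2, but 2 in a fit of those 6 arrays alone and 0 with the replicate block (0 to 2 without single arrays). Against cat2 rbohD the count was 0, with 1 under the stricter filter and 1 under array weights (0 to 1 without single arrays). In cat2 rbohD against cat2 it was 1, with 2 where no filter was set, BGLU45 and the dim BGLU27 (0 to 1 without single arrays). Of the ER body genes, 3 were called in cat2 rbohF against cat2 (1 to 4 without single arrays) and 0 against cat2 rbohD, but 2 with the replicate block (0 to 1 without single arrays). Over all probe sets, 2273 were called in cat2 rbohF against cat2 (817 to 2704 without single arrays: 817 without cat2 rbohF replicate 1, 1099 without its replicate 3, 1080 without cat2 replicate 2 and 1404 without its replicate 3). In cat2 rbohF against cat2 rbohD 267 were called, but 164 where no filter was set, 417 under the stricter filter, 703 under array weights and 2 in a fit of those 6 arrays (1 to 1065 without single arrays, with the most, 1065, without cat2 rbohD replicate 3). In cat2 rbohD against cat2 29 were called, but 18 under array weights, 15 in a fit of those 6 arrays and 54 with the replicate block (7 to 35 without single arrays). The cause was not tested. In cat2 rbohF against cat2, the replicate block ended the calls of BGLU45 and AT3G09250 and changed no other call of a family, ER body or coumarin gene or neighbour named above.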
